A study of Mus musculus with 10 samples.

Results

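A set of 8 Notch pathway genes was followed through the response of mouse B cells to antigen receptor stimulation: the receptors Notch1 and Notch2, the glycosyltransferases Lfng and Mfng, the nuclear factors Rbpj and Maml1, and the targets Hes1 and Dtx1. They were chosen by name, with earlier results of these data known, as the part of the pathway known for marginal zone B cell fate. All 8 were found among the 17658 genes of the table. The libraries came from C57BL/6 mice aged 10 weeks, either Nr4a1+/+ (wild type) or Nr4a1-/- (labelled knockout). Nr4a1 encodes Nur77, an orphan nuclear receptor induced by antigen receptor signalling. B cells were isolated from spleen and lymph node by magnetic removal of other cells. They were left unstimulated (1 library of each genotype) or received 10 µg/mL anti-IgM, which crosslinks the antigen receptor, for 2 h (4 libraries of each genotype, named A, B, C and D). The labels give no other allele and no further treatment. The labels do not say whether a letter stands for 1 mouse, so p-values measure the spread between these libraries, which may be technical. The study aimed to identify inducible genes whose expression depends on Nr4a1 genotype.

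Notch receptors are cut within the membrane after a ligand on a neighbouring cell pulls on them, and the freed intracellular domain enters the nucleus. There it binds the DNA-binding protein RBPJ and recruits a coactivator of the Mastermind family, which switches on target genes. In the spleen, Notch2 on B cells is engaged by a Delta ligand on stromal cells, and this signal is needed to form marginal zone B cells. The Fringe enzymes Lfng and Mfng add a sugar to the receptor that favours Delta ligands, and both are known to act in this fate choice.

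Values are given in FPKM (a fragment count divided by transcript length and library size), which allows levels of different genes to be set side by side. The absolute depth is unknown. The sum of FPKM was 557214 to 571784 in the stimulated libraries, 595500 in the unstimulated knockout library and 674961 in the unstimulated wild-type library. Relative depth, read from the steps of 64 low genes, ran from 0.917 to 1.07. Nr4a1 itself stood at 126 FPKM in both unstimulated libraries and at 660.2 to 856 FPKM across the 8 stimulated libraries. Its level did not separate the genotypes, and directions are therefore those between the labelled libraries. All 8 T cell markers were under 1 FPKM in every library, none of them listed at 0 throughout. The summed level of 7 myeloid markers was 40.4 to 140.8 FPKM in stimulated wild-type libraries and 24.5 to 103.5 FPKM in those labelled knockout. Library B was the highest of each genotype, and most of its sum was Lyz2 (114.95 FPKM in wild type and 82.57 FPKM in knockout). Among the stimulated libraries Itgam, Cd14 and Adgre1 were also highest in B, whereas Csf1r, S100a8 and S100a9 were not. The B cell markers summed to 1260 to 1374 FPKM in the stimulated and to 3616 and 3852 FPKM in the unstimulated libraries. These are bulk samples, in which fewer cells of a type and less RNA per cell cannot be told apart.

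The promoters of 4 members are shown because 3 of these genes (Lfng, Rbpj and Dtx1) differed between the genotypes after stimulation and the fourth, Notch2, had the largest response. In GRCm38.p6 Lfng spans chromosome 5 from 140607341 to 140615545, Rbpj chromosome 5 from 53555779 to 53657445, Dtx1 chromosome 5 from 120680203 to 120711867, and Notch2 chromosome 3 from 98013538 to 98150367. Notch1 lies on chromosome 2 (26457902 to 26503822), Mfng on 15 (78755882 to 78773516), Maml1 on 11 (50255634 to 50293131) and Hes1 on 16 (30065357 to 30067796). Promoter windows were found for 6 of the 8 members. Each is the 250 bases before a RefSeq start (build GRCm38.p6), written 5′ to 3′ on the strand of the gene, with each TGGGAA, or its reverse complement TTCCCA, in capitals. TGGGAA is the core of the sequence that RBPJ binds.
Lfng chr5:140607091-140607340 (+ strand): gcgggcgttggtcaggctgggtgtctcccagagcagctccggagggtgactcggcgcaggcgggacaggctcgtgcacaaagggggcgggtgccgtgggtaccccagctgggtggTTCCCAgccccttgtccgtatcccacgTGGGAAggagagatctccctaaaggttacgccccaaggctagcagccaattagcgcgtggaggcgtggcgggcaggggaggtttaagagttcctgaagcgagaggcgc
Rbpj chr5:53590096-53590345 (+ strand): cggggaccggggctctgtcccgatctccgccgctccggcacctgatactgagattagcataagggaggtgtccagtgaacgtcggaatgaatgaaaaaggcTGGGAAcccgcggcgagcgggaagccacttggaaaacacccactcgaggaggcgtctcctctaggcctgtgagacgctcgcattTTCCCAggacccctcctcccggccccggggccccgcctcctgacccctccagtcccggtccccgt
Dtx1 chr5:120711670-120711919 (- strand): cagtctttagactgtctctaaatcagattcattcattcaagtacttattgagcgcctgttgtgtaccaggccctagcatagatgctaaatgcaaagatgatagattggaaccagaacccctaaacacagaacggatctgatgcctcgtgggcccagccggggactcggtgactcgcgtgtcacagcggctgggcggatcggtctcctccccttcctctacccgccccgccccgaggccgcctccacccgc
Notch2 chr3:98013288-98013537 (+ strand): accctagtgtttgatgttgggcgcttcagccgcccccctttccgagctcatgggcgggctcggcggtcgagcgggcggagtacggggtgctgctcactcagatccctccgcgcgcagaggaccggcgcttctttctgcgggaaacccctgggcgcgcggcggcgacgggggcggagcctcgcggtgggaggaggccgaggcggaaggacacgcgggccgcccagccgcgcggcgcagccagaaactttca
The Lfng window held 2 matches, which began 135 and 108 bases before the start, on the minus and plus strand relative to the gene. The match at 108 is part of the longer GTGGGAA, which is found in 5.42% of promoters, and it overlaps a CACGTG that begins 112 bases before the start. The Rbpj window shown held 2 matches as well, at 149 and 65 bases, and a second Rbpj window, from 53590236 to 53590485, held 1. Both Rbpj windows lie inside the annotated gene span. The Dtx1 window, which overlaps the outer end of the annotated gene span, and the Notch2 window held none. Of 32851 mouse promoter windows of the same length searched on both strands, 21.6% held TGGGAA at least once and 2.77% held 2 or more, and 6.02% held CACGTG. A match describes the letters of a window and shows no binding.

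In unstimulated cells Notch2 was the most abundant member on average, with 39.9 FPKM for wild type and 49.5 FPKM for the labelled knockout. Mfng, Lfng and Dtx1 followed, and the ranges of neighbours in this order overlapped. Rbpj (15.6 and 21.5 FPKM) and Maml1 (10.03 and 14.5 FPKM) came next, and Hes1 and Notch1 were the lowest, with overlapping ranges. After anti-IgM the order in wild type was Lfng, Dtx1, Rbpj, Mfng, Maml1, Notch2, Hes1 and Notch1, and only Maml1 and Notch2 overlapped. In the stimulated libraries labelled knockout, Rbpj, Dtx1 and Lfng overlapped at the top with means of 46.1, 45.7 and 45.6 FPKM. Mfng, Maml1, Notch2, Hes1 and Notch1 then followed in the same order as in wild type.

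**Figure D1:**
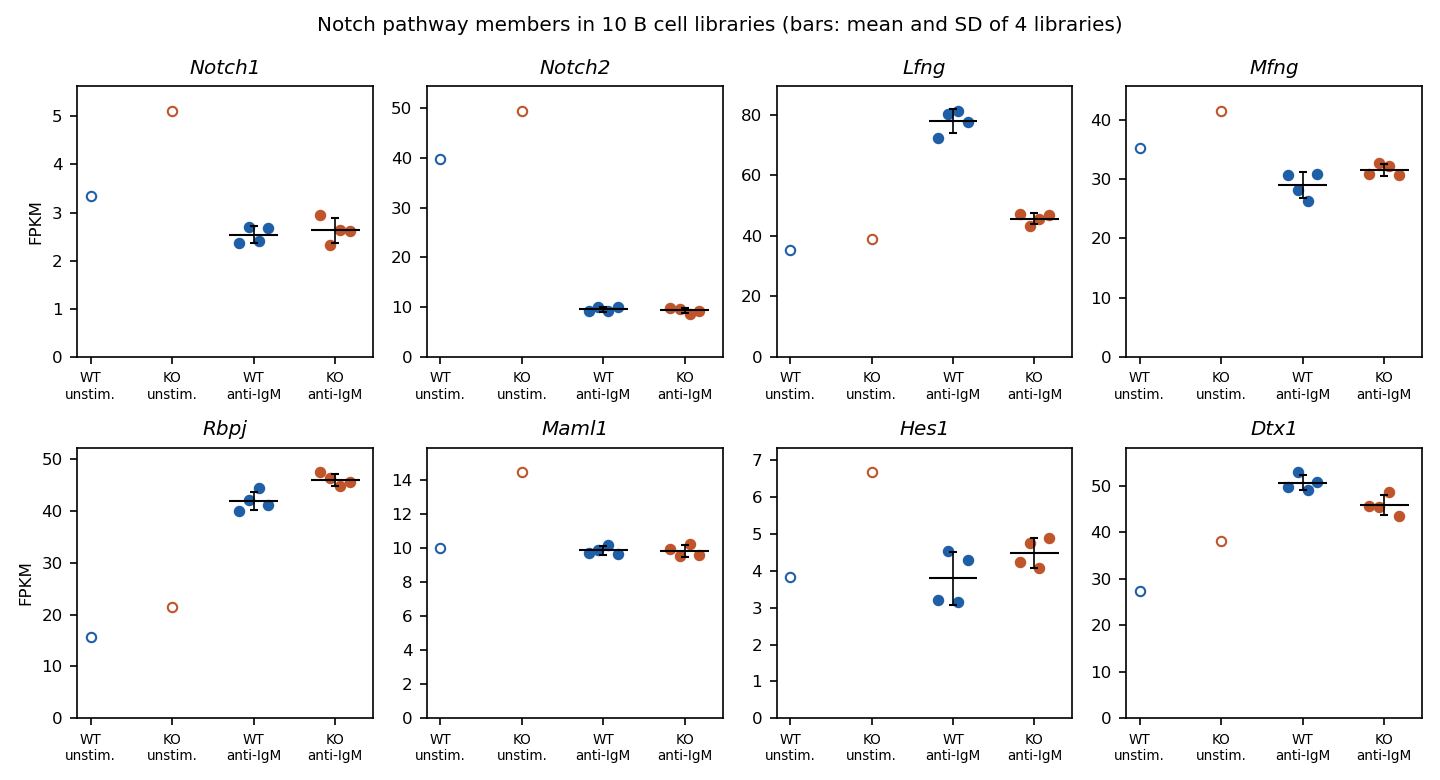
FPKM of each of the 8 members in every library, by group (open points, unstimulated; filled points, 2 h anti-IgM; bars, mean and SD of 4 libraries). Notch2 lies between 8.69 and 10.05 FPKM in all stimulated libraries against 39.9 and 49.5 FPKM unstimulated, and Lfng is the member whose stimulated groups stand farthest apart.

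The response to anti-IgM was fitted across the 10 libraries, with a genotype term (limma on log2(FPKM + 1), called at an adjusted p under 0.05 over 10225 genes). Of the 8 members, 7 changed: Rbpj, Lfng and Dtx1 rose, and Notch2, Notch1, Mfng and Maml1 fell. Calls were common in this comparison, at 78.9% of all genes tested (31.2% higher and 47.7% lower), so the count of members is near the background. With a size of at least 1 on the log2 scale as a second condition, 20.3% of all genes were called (7.94% upward and 12.4% downward), and 2 members were, Rbpj upward and Notch2 downward. All stimulated libraries lay below both unstimulated ones in 44.3% of all genes and above both in 28.6%. The median log2 change was -0.26 over the members and -0.17 over all genes. Other scalings moved that median of all genes, to -0.031 (TPM), -0.017 (median of ratios) and 0.0043 (quantile normalization), so small falls are to be read against it. The share of called genes that were higher was 39.5% as deposited, and 50.2% and 50.6% under the median-of-ratios and quantile scalings.

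Among the receptors, Notch2 showed the largest response of the 8 genes. In wild type, the unstimulated library held 39.9 FPKM and the stimulated libraries A, B, C and D held 9.13, 10.05, 9.14 and 9.96 FPKM. Among libraries labelled knockout, the unstimulated one held 49.5 FPKM and the stimulated ones, in the same order, 9.91, 9.53, 8.69 and 9.22 FPKM. Every stimulated library was thus far below both unstimulated ones, while the stimulated groups of the genotypes overlapped. The level was 4.17-fold lower after stimulation in wild type and 5.30-fold lower in the libraries labelled knockout. Over both genotypes Notch2 fell by 2.12 on the log2 scale (SE 0.0777, limma adjusted p = 8.42e-10), and it fell in all 23 alternatives of the fit, by 1.78 to 2.29.

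Notch1, the receptor better known from T cell development, was a low transcript throughout. It was listed at 3.35 and 5.12 FPKM in the unstimulated wild-type and knockout libraries, at 2.37, 2.71, 2.4 and 2.68 FPKM in stimulated wild type, and at 2.95, 2.32, 2.63 and 2.61 FPKM in the stimulated libraries labelled knockout. All 8 stimulated values were below both unstimulated values. The response was -0.53 on the log2 scale (SE 0.107, limma adjusted p = 0.000796), and after quantile normalization it was -0.11 (adjusted p = 0.328). Without the unstimulated knockout library it was -0.30 (adjusted p = 0.0346), and without the unstimulated wild-type library -0.76. The ratio of Notch2 to Notch1 FPKM was 11.9 and 9.67 in the unstimulated libraries and 3.30 to 4.11 in the stimulated ones, so the receptor transcripts were closer in level after anti-IgM, with no overlap.

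Neither receptor differed detectably between the genotypes after stimulation. The stimulated means of Notch2 were 9.57 ± 0.504 FPKM (wild type; ± SD, n = 4) and 9.34 ± 0.516 FPKM (labelled knockout; ± SD, n = 4). The log2 difference was -0.032 with a 95% interval of -0.15 to 0.085 (limma adjusted p = 0.777). For Notch1 the means were 2.54 ± 0.18 and 2.63 ± 0.258 FPKM, and the log2 difference was 0.034 with an interval of -0.13 to 0.19 (limma adjusted p = 0.830). These intervals bound any difference at this time; they do not show that the levels were equal.

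The genotype comparison over the 8 stimulated libraries called 3 of the 8 members: Lfng and Dtx1 were lower and Rbpj was higher in the libraries labelled knockout. Across all genes tested 9.72% were called (3.91% higher and 5.81% lower). The groups of 4 and 4 libraries did not overlap for the same 3 members, against 15.5% of all genes (5.96% with the knockout higher and 9.57% with it lower). No member was called with a size of 1 or more on the log2 scale, where 0.127% of all genes were. At an unadjusted p under 0.05, 4 members passed, the additional one being Mfng. The median log2 difference was 0.015 over the members and -0.024 over all genes. The share of called genes that were higher was 40.2% as deposited, and 57.2% and 52.2% under those scalings. Of the 3 calls, only that of Lfng held in all 21 alternatives of the fit.

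Lfng encodes lunatic fringe, the Fringe enzyme known from segment formation in the embryo and required with Mfng for a full marginal zone compartment. In wild type, the unstimulated library held 35.3 FPKM and the stimulated libraries A, B, C and D held 72.5, 80.2, 81.4 and 77.5 FPKM. Among libraries labelled knockout, the unstimulated one held 39.1 FPKM and the stimulated ones, in the same order, 47.1, 43.2, 45.4 and 46.8 FPKM. The lowest stimulated wild-type library was well above the highest stimulated knockout library, whereas the unstimulated pair lay close together.

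The stimulated means of Lfng were 77.9 ± 3.95 FPKM (wild type; ± SD, n = 4) and 45.6 ± 1.77 FPKM (labelled knockout; ± SD, n = 4), or 58.6% of the wild-type level. The log2 difference was -0.76 (SE 0.0418, 95% interval -0.85 to -0.66, limma adjusted p = 9.13e-06), and the two-sided exact permutation p was 0.0286, the smallest that 4 against 4 libraries allow. By p-value Lfng was 15th of the 10225 genes tested, and by size of the decrease 61st. The members were chosen with earlier results of these data known, so these ranks are descriptions and no independent support. Across the 21 alternatives the log2 difference ran from -0.79 to -0.71, with adjusted p from 4.35e-07 to 0.000652. Without both libraries lettered B, which had the highest myeloid marker sums, it was -0.72 (adjusted p = 0.000381).

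The rise of Lfng with anti-IgM was 2.20-fold in wild type and 1.17-fold in the libraries labelled knockout. On the log2 scale these responses were 1.12 and 0.22, each against 1 unstimulated library. Fitted over both genotypes the response was 0.67 (SE 0.146, limma adjusted p = 0.00138). That value is an average of unlike responses: it was 0.22 without the unstimulated wild-type library and 1.12 without the unstimulated knockout library. Lfng rose in all 23 alternatives, with adjusted p from 2.51e-07 to 0.0334.

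Mfng, manic fringe, moved little. It was at 35.2 and 41.5 FPKM in the unstimulated wild-type and knockout libraries, at 30.7, 28.1, 26.3 and 30.8 FPKM in stimulated wild type and at 30.9, 32.7, 32.2 and 30.6 FPKM in the stimulated libraries labelled knockout. All stimulated values lay below both unstimulated values, and the stimulated groups overlapped narrowly. The response was -0.33 on the log2 scale (SE 0.0607, limma adjusted p = 0.000409). After rescaling to TPM the response was -0.17 (adjusted p = 0.0707). The genotype difference was 0.12 (95% interval 0.0073 to 0.24, limma adjusted p = 0.197), opposite in sign to that of Lfng and not called.

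The balance of the Fringe transcripts therefore differed by group within each library, where scaling cancels. Lfng over Mfng was 1.005 in the unstimulated wild-type library and 0.941 in the unstimulated knockout library. After anti-IgM the ratio was 2.37, 2.86, 3.09 and 2.51 in wild-type libraries A to D and 1.52, 1.32, 1.41 and 1.53 in those labelled knockout. The ratio was higher in every stimulated than in either unstimulated library, and every wild-type value was above every knockout value. Counting also Rfng, the remaining Fringe gene, Lfng made up 67.9% to 72.6% of the Fringe FPKM in stimulated wild type, 54.2% to 57.5% in the stimulated libraries labelled knockout, and 47.3% and 45.8% in the unstimulated ones.

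**Figure D2:**
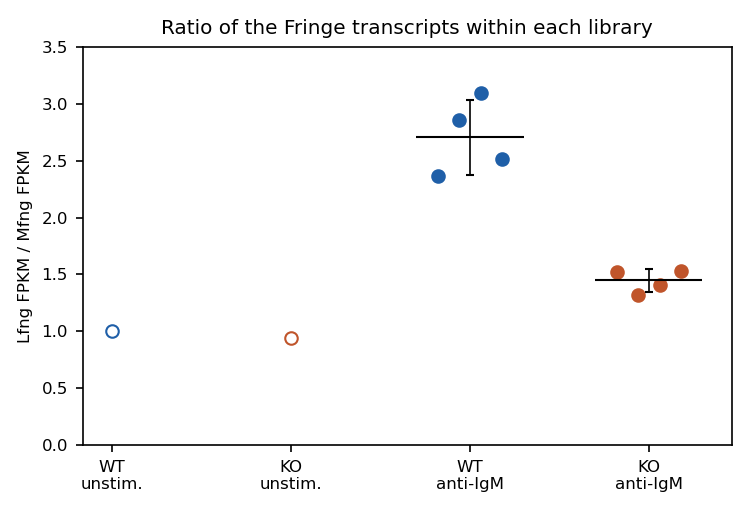
Ratio of Lfng to Mfng FPKM within each library, by group (open points, unstimulated; filled points, 2 h anti-IgM; bars, mean and SD of 4 libraries). Stimulated wild-type libraries lie at 2.37 to 3.09, stimulated knockout libraries at 1.32 to 1.53 and the unstimulated pair at 1.005 and 0.941.

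Rbpj encodes the DNA-binding protein through which all Notch receptors act. In wild type, the unstimulated library held 15.6 FPKM and the stimulated libraries A, B, C and D held 40.1, 42.1, 44.4 and 41.2 FPKM. Among libraries labelled knockout, the unstimulated one held 21.5 FPKM and the stimulated ones, in the same order, 47.5, 46.3, 44.8 and 45.7 FPKM. Stimulated libraries were all above the unstimulated pair, and the stimulated groups of the genotypes did not overlap but nearly touched.

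Over both genotypes Rbpj rose, with a log2 response of 1.22 (SE 0.0637, limma adjusted p = 1.27e-08), 2.68-fold in wild type and 2.14-fold in the libraries labelled knockout. After stimulation the means were 41.9 ± 1.82 FPKM (wild type; ± SD, n = 4) and 46.1 ± 1.15 FPKM (labelled knockout; ± SD, n = 4). The log2 difference was 0.13 (SE 0.0350, limma adjusted p = 0.0441; two-sided exact permutation p = 0.0286). This call held in 7 of 21 alternatives, whose adjusted p ran from 0.0186 to 0.157, and it was lost when any 1 stimulated library other than wild-type C was left out.

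Maml1, the Mastermind coactivator known to be needed for marginal zone B cells, was nearly level after stimulation. It was at 10.03 and 14.5 FPKM in the unstimulated wild-type and knockout libraries, at 9.73, 9.89, 10.2 and 9.67 FPKM in stimulated wild type and at 9.95, 9.55, 10.3 and 9.61 FPKM in the stimulated libraries labelled knockout. The stimulated groups overlapped, and the high value was the unstimulated knockout library. The genotype difference after anti-IgM was -0.0046 on the log2 scale (95% interval -0.093 to 0.084, limma adjusted p = 0.965). The fitted response was -0.27 (SE 0.0897, limma adjusted p = 0.0174). It was -0.020 (adjusted p = 0.778) without the unstimulated knockout library and -0.12 (adjusted p = 0.366) after rescaling to TPM, so the call rests on that library and on the scaling.

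Dtx1, Deltex1, is an E3 ubiquitin ligase that binds the Notch intracellular domain and a target of Notch2 in B cells. In wild type, the unstimulated library held 27.3 FPKM and the stimulated libraries A, B, C and D held 49.8, 52.9, 49.1 and 50.7 FPKM. Among libraries labelled knockout, the unstimulated one held 38.0 FPKM and the stimulated ones, in the same order, 45.5, 45.4, 48.6 and 43.4 FPKM. Each stimulated library was above both unstimulated ones, and the highest stimulated knockout library was just below the lowest stimulated wild-type library.

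Dtx1 rose too, with a log2 response over both genotypes of 0.56 (SE 0.104, limma adjusted p = 0.000407). The rise was 1.85-fold in wild type and 1.2-fold in the libraries labelled knockout, or 0.87 and 0.26 on the log2 scale, which are also the fitted values without the unstimulated knockout and wild-type library. The stimulated means were 50.6 ± 1.66 FPKM (wild type; ± SD, n = 4) and 45.7 ± 2.15 FPKM (labelled knockout; ± SD, n = 4), or 90.4% of the wild-type level. The log2 difference was -0.14 (SE 0.0382, limma adjusted p = 0.0454; two-sided exact permutation p = 0.0286). This call held in 6 of 21 alternatives (adjusted p from 0.0178 to 0.190), and it was lost when any 1 stimulated library other than knockout C was left out.

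Hes1, a transcriptional repressor and a well-known Notch target, was not called in the genotype, response or interaction fit. It was at 3.83 and 6.68 FPKM in the unstimulated wild-type and knockout libraries, at 3.20, 4.53, 3.16 and 4.30 FPKM in stimulated wild type and at 4.23, 4.75, 4.07 and 4.90 FPKM in the stimulated libraries labelled knockout. The groups overlapped, and the unstimulated wild-type value lay inside the stimulated wild-type range. The genotype difference after anti-IgM was 0.20 on the log2 scale (95% interval -0.036 to 0.44, limma adjusted p = 0.308). The fitted response was -0.25 (SE 0.135, limma adjusted p = 0.104). It was 0.14 after quantile normalization, -0.022 (adjusted p = 0.911) without the unstimulated knockout library and -0.49 (adjusted p = 0.0236) without the unstimulated wild-type library.

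**Figure D3:**
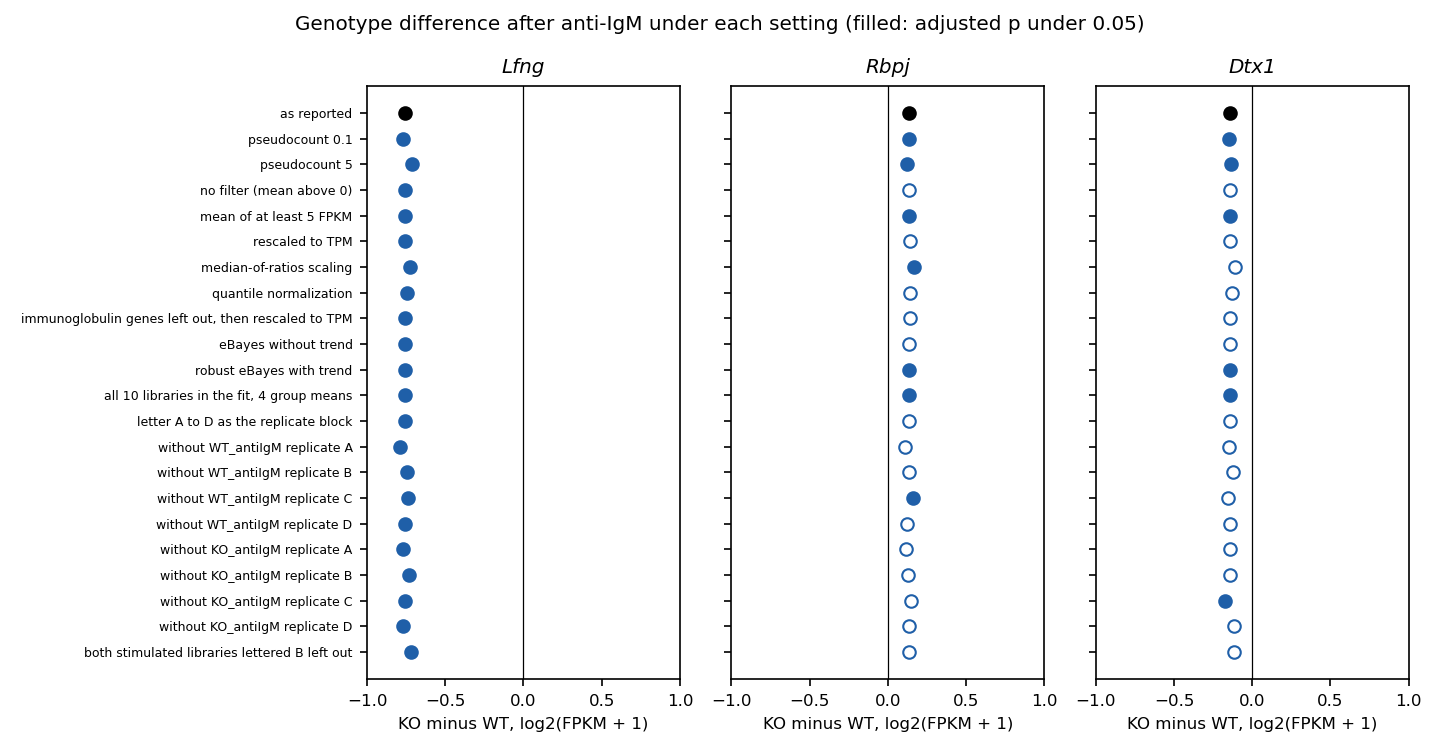
Genotype difference after anti-IgM (log2(FPKM + 1), knockout minus wild type) of Lfng, Rbpj and Dtx1 as reported and under each of 21 alternatives (filled points, limma adjusted p under 0.05; open points, not under it). Lfng stays between -0.79 and -0.71 and filled, while most points of Rbpj and Dtx1 are open.

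The difference in response between the genotypes was tested as an interaction over the 4 groups. Each lone unstimulated library was assumed to vary like the stimulated ones. The test called 4 of the 8 members, Lfng, Dtx1, Maml1 and Rbpj, all with a negative difference (knockout response minus wild-type response). For Lfng, Dtx1 and Rbpj this was a smaller rise in the libraries labelled knockout. For Maml1 it was a larger fall there, with a response of -0.51 beside -0.020 in wild type. Of all genes tested 18.9% were called, 14.7% with a negative and 4.18% with a positive difference. The log2 difference in response was -0.90 for Lfng (SE 0.0938, limma adjusted p = 0.00153), -0.61 for Dtx1 (SE 0.0859, adjusted p = 0.00304), -0.49 for Maml1 (SE 0.0873, adjusted p = 0.00594) and -0.30 for Rbpj (SE 0.0795, adjusted p = 0.0285). Notch1 (-0.46, adjusted p = 0.0731), Notch2 (-0.34, adjusted p = 0.0634), Hes1 (-0.47, adjusted p = 0.206) and Mfng (-0.11, adjusted p = 0.553) did not pass.

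The members differed in what the interaction was made of. For Lfng the unstimulated libraries differed by 0.14 on the log2 scale (knockout minus wild type) and the stimulated groups by -0.76. For Maml1 the unstimulated difference was 0.49 and the stimulated difference was near 0. Dtx1 had an unstimulated difference of 0.46 beside a stimulated one of -0.14, and Rbpj one of 0.44 beside 0.13. All 8 members were higher in the unstimulated library labelled knockout, 7 of them by at least 0.2, where 30.2% of all genes were. The median over all genes was 0.067 with an SD of 0.38. With 1 library of each genotype these unstimulated differences have no replicate check, and genotype and library cannot be told apart there. The summed FPKM of these libraries also differed. Called genes with a positive difference in response were 22.1% of calls as deposited and 4.82% on the TPM scale. Under the median-of-ratios and quantile scalings they were 41.6% and 41.9%. The calls of Lfng, Dtx1 and Maml1 held in all 19 alternatives. Each alternative kept both unstimulated libraries, which the contrast needs, so the alternatives cannot test a difference that lies between those libraries. Rbpj was lost with median-of-ratios scaling (-0.22, adjusted p = 0.122), without stimulated knockout library D (-0.30, adjusted p = 0.0504) and without both B libraries (-0.30, adjusted p = 0.0672).

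**Figure D4:**
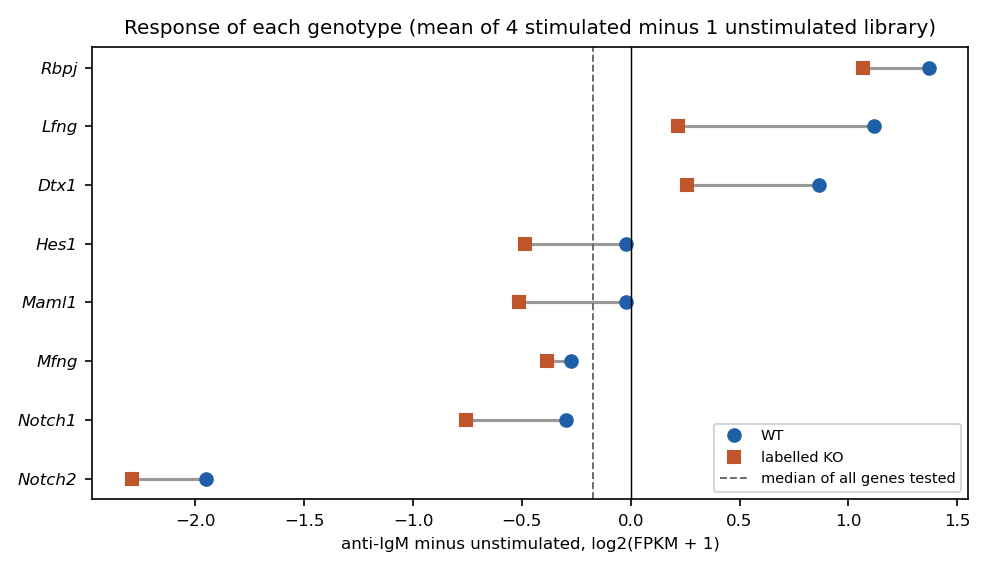
Response to anti-IgM (log2(FPKM + 1), stimulated mean minus the unstimulated library) of each member in wild type (circles) and in libraries labelled knockout (squares); the dashed line is the median fitted response of all genes, -0.17. The widest gap is at Lfng, 1.12 against 0.22, and at Maml1 the wild-type response of -0.020 faces -0.51.

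The rest of the pathway was read from 57 further genes, of which 39 had a mean of at least 1 FPKM and were tested. The 5 ligands (Dll1, Dll3, Dll4, Jag1 and Jag2) ranged from 0 to 0.48 FPKM and the receptors Notch3 and Notch4 from 0 to 0.07 FPKM over all libraries, so none of them was tested. After anti-IgM 9 of the 39 rose and 19 fell, where 31.2% and 47.7% of all genes did. The called count was thus 28, against 78.9% of all genes. On the log2 scale 6 fell by 1 or more, where 12.4% of all genes did. None rose by as much, where 7.94% of all genes did. The median response of the 39 genes was -0.20, near that of all genes.

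The largest called rise was that of Spen. Spen, a corepressor that competes for RBPJ and is known to limit marginal zone fate, rose by 0.90 on the log2 scale (SE 0.0801, limma adjusted p = 1.06e-06), from 7.30 and 9.78 FPKM to means of 16.3 ± 0.820 and 17.2 ± 1.30 FPKM (± SD, n = 4 in either group). Adam10, the protease that makes the ligand-dependent cut, rose by 0.77, and Furin, which cuts the receptor on its way to the surface, by 0.76. Smaller rises were those of the target Hes5 (0.51), the coactivator Snw1 (0.38), the corepressors Hdac2 (0.34) and Ctbp1 (0.31) and the acetyltransferase Kat2a (0.27). Without the unstimulated wild-type library the rises of Hes5 (0.21, adjusted p = 0.239) and Kat2a (0.088, adjusted p = 0.190) were not called, and that of Ctbp1 was 0.097 (adjusted p = 0.0406). Without the unstimulated knockout library they were 0.81, 0.46 and 0.52. Ctbp1 also missed the threshold after quantile normalization (0.16, adjusted p = 0.0518), as did Hes5 with the replicate block (0.48, adjusted p = 0.0655).

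The largest called falls included a feedback gene of the pathway. Neurl3, of the Neuralized family of ubiquitin ligases, fell by 2.78, from 196.9 and 208.4 FPKM to means of 32.7 ± 1.81 FPKM for wild type and 25.1 ± 1.80 FPKM for the labelled knockout (± SD, n = 4 in either group). Nrarp, a Notch target that destabilises the nuclear complex, was listed at 2.84 and 3.84 FPKM unstimulated and at 0.30 to 0.80 FPKM after anti-IgM. Its response was -1.50 on the log2 scale (SE 0.128, limma adjusted p = 7.60e-07). With a mean of 1.093 FPKM over the 10 libraries, Nrarp passed the filter of 1 FPKM only through the unstimulated libraries. Its call is therefore a description and no independent support. The size of this low gene's response depended on the pseudocount, at -2.47 with 0.1 and -0.59 with 5, and on the FPKM scale it was 5.83-fold lower in wild type and 6.68-fold lower in the labelled knockout. The acetyltransferase Kat2b fell by 1.68, the corepressors L3mbtl3 and Cir1 by 1.45 and 1.44, and Dtx3l, a relative of Dtx1, by 1.21. Ep300, the histone acetyltransferase recruited through Mastermind, fell by 0.93, and the glycosyltransferase Eogt by 0.86. Receptor turnover genes had 6 of 7 tested members lower and none higher, against 47.7% of all genes lower.

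Between the genotypes after stimulation, 5 of the 39 tested genes were called, against 9.72% of all genes, and 8 had an unadjusted p under 0.05. Hdac1, a histone deacetylase found in RBPJ corepressor complexes, was higher in the libraries labelled knockout, at 92.3 ± 1.56 against 76.1 ± 1.49 FPKM (± SD, n = 4 in either group; log2 difference 0.28, limma adjusted p = 0.000105). Furin was higher by 0.25 (adjusted p = 0.00698) and Adam10 by 0.15 (adjusted p = 0.00346). Neurl3 was lower by a log2 difference of -0.37 (adjusted p = 0.00306). Psen2, a catalytic subunit of gamma-secretase, was lower at -0.16 (adjusted p = 0.0229), a call lost in 7 of 21 alternatives. No coactivator (0 of 7), glycosylation gene (0 of 4), receptor turnover gene (0 of 7) or target (0 of 2) was called. With lists this short, a count of 0 is near the background of 9.72%. The median over the 39 genes was 0.00015, and none of them had a difference as large in size as that of Lfng.

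**Figure D5:**
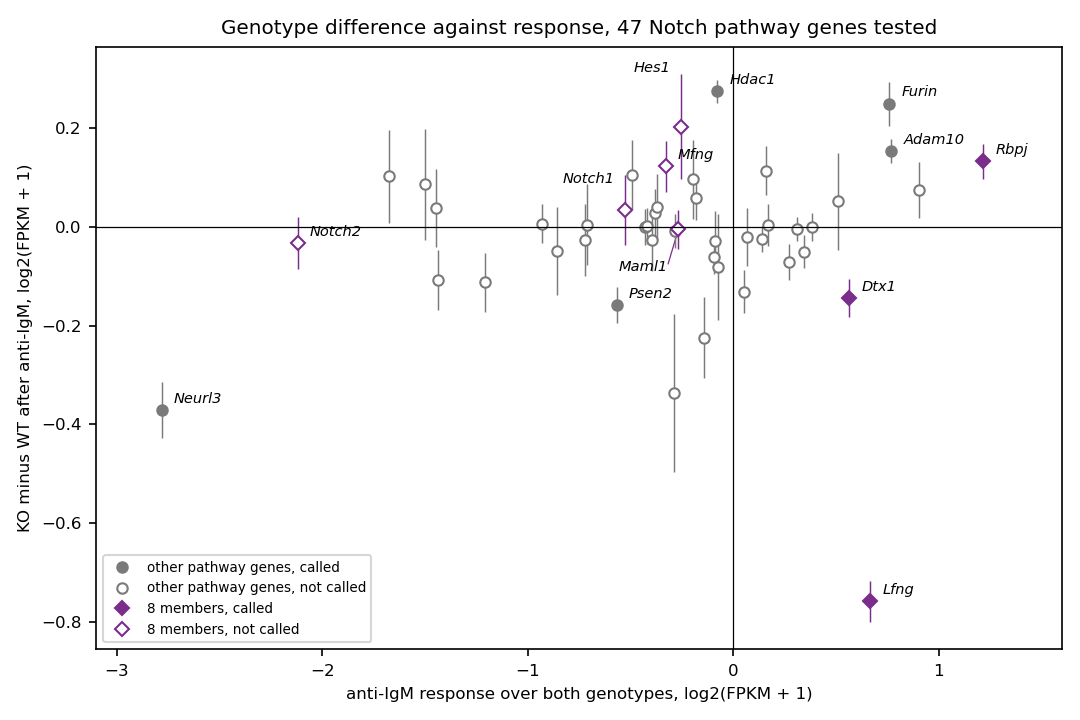
Genotype difference after anti-IgM (vertical axis, bars are SE) against the response over both genotypes (horizontal axis), both on the log2(FPKM + 1) scale, for the 8 members (diamonds) and the 39 other pathway genes tested (circles; filled where the genotype difference was called). Lfng lies at -0.76, below every other point, and Neurl3 and Notch2 lie farthest to the left.

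The interaction called 8 of the 39 genes, all with a negative difference in response, against 14.7% of all genes in that direction. Among them were Ncstn and Aph1a, subunits of the protease complex that cuts Notch within the membrane, and the acetyltransferase genes Ep300 and Kat2a. A negative difference can be a larger fall or a smaller rise in the libraries labelled knockout. The log2 response of Ep300 was -0.73 in wild type and -1.13 in the labelled knockout, and that of Kat2a was 0.46 and 0.088. Ncstn, as an example, was at 23.8 and 31.4 FPKM in the unstimulated wild-type and knockout libraries. Its 8 stimulated libraries held 24.3 to 27.1 FPKM, and the genotypes overlapped there. Its log2 difference in response (-0.45) thus lay mainly between 2 single unstimulated libraries, which have no replicate check.

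Markers of marginal zone B cells also differed in part. Of 10 such markers tested, 2 were lower and 1 was higher in the stimulated libraries labelled knockout, where 5.81% and 3.91% of all genes were. Cr2, complement receptor 2, was at 41.8 and 45.6 FPKM unstimulated, at 67.4, 65.3, 63.6 and 59.4 FPKM in stimulated wild type and at 45.6, 40.8, 43.0 and 47.6 FPKM in the stimulated libraries labelled knockout. Its stimulated groups did not overlap (log2 difference -0.52, SE 0.0529, limma adjusted p = 0.000273). Cd36 was also lower (-0.59, adjusted p = 0.00459), and S1pr3, the sphingosine phosphate receptor of marginal zone cells, was higher (0.52, adjusted p = 0.000475). In the unstimulated wild-type and knockout libraries Cd36 was at 16.9 and 12.8 FPKM, and S1pr3 at 2.43 and 4.94 FPKM. Unlike Cr2, both thus differed in the same direction before stimulation, without a replicate check. The summed level of the 10 markers was 766 to 859 FPKM in stimulated wild type and 707.4 to 790.0 FPKM in the stimulated libraries labelled knockout, ranges that overlapped. Plac8 alone held 561.3 to 625.3 FPKM of this sum in stimulated wild type and 521.3 to 592.2 FPKM in the stimulated libraries labelled knockout. The overlap therefore mostly reflects Plac8 and says little about the other markers. The part of the 10 markers in the Lfng difference was not tested.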

How the data were processed

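Polyadenylated RNA was sequenced from 10 libraries with a stranded kit, per the labels. The authors deposited 1 table of FPKM, with gene symbols, made with STAR 2.4 and RSEM 1.2.14 on mm10, per the submitters' processing notes; the gene annotation and the use of strand are not given in the sources used here. FPKM are not counts, so no count model was fitted. Values were transformed as log2(FPKM + 1), which understates changes of low genes, and the 10225 genes averaging 1 FPKM or more were fitted with limma 3.58.1 (R 4.3.3; lmFit, eBayes with trend, two-sided). Benjamini-Hochberg adjustment covered all genes tested, and an adjusted p under 0.05 was a call. The genotype fit used the 8 stimulated libraries, and the other fits used all 10. Single members were also compared by an exact permutation test over 70 labellings. The fitting was tested on simulated data.

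The members and lists were chosen with earlier results of these data known. Besides the members, the genes named are pathway list genes called between the genotypes and the 8 largest called rises and 8 largest called falls with anti-IgM, the best correlated genes of Notch2, Hes1 and Dtx1, and Nr4a1. Outside this rule, the ligands, Notch3, Notch4 and Rfng were named for their roles. Marker and fate genes with values, and the pathway genes called in the interaction, were named after their values were seen. Promoters and positions came from RefSeq tables of GRCm38.p6. Alternatives covered pseudocounts of 0.1 and 5, filters, 4 other scalings, eBayes settings, the libraries fitted, the letter as a block and leaving out each library.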

Additional observations from a re-analysis of the deposited data

Results flagged for a closer look

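In 4 members the response to anti-IgM differed between the genotypes by the interaction test, with a negative difference (knockout minus wild type). For Lfng, Dtx1 and Rbpj this was a smaller rise in the libraries labelled knockout, and for Maml1 a larger fall. The log2 difference in response was -0.90 for Lfng, -0.61 for Dtx1, -0.49 for Maml1 and -0.30 for Rbpj. Each value rests on 1 unstimulated library of each genotype. No stimulated library of any member stood apart from the other 3 of its group by Dixon's test, over 16 groups of 4 examined.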

How the results depend on the processing

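The count of 3 members called between the genotypes was 1 with no filter on low values, after rescaling to TPM with or without immunoglobulin genes, after quantile normalization, without the eBayes trend, with the letter as the replicate block and, as an alternative chosen after seeing the data, without both B libraries. Leaving out 1 library gave 1 to 2. Lfng was called in all of these. Whether same-lettered libraries were prepared together was not tested, and the labels do not say. The correlation of deviations for same-lettered libraries was -0.021 (A), 0.045 (B), 0.0075 (C) and -0.12 (D). No wild-type library correlated best with its own letter, and among the libraries labelled knockout only B did. Low correlations cannot exclude a shared preparation. The summed myeloid markers ran B, A, D, C from highest to lowest in both stimulated groups, whereas the summed erythroid markers differed in order between the genotypes. The replicate block took the genotype calls over all genes from 994 to 740. Without both B libraries they were 660. Over all genes, interaction calls went from 1931 to 3630 on the TPM scale, and responses called with a size of 1 or more from 2078 to 1132 with a pseudocount of 5. The genotype difference changed sign in members that were not called: Notch2 to 0.0082 and Maml1 to 0.039 after quantile normalization, Maml1 to 0.028 with median-of-ratios scaling and to 0.0092 without both B libraries. Leaving out 1 library gave -0.0080 to 0.076 for Notch1 and -0.023 to 0.010 for Maml1, with further sign changes to 0.0085 and 0.0058 for Maml1. The response of Hes1 was 0.14 after quantile normalization, and it passed the test with the replicate block (-0.38, limma adjusted p = 0.0476), without stimulated wild-type library B (-0.30, adjusted p = 0.0462) and without the unstimulated wild-type library (-0.49, adjusted p = 0.0236). Without the unstimulated knockout library it was -0.022 (adjusted p = 0.911). The interaction passed for Notch1 and for Notch2 in 4 alternatives each. The cause of these changes was not tested. With 1 unstimulated library of each genotype and no absolute depth, responses and unstimulated differences carry no replicate check of their own.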

Other observations

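Among 10 regulators of B cell fate outside the Notch pathway list, 2 were called between the genotypes after anti-IgM, where 9.72% of all genes were. Id2, an inhibitor of E proteins, held 36.4, 39.5, 43.1 and 46.8 FPKM in the stimulated wild type, 25.7, 26.1, 25.4 and 24.9 FPKM in the stimulated labelled knockout, and 29.0 and 23.3 FPKM in their unstimulated counterparts. The stimulated groups did not overlap (log2 difference -0.67, limma adjusted p = 0.000229). Nfkb1, the NF-kB subunit needed for marginal zone B cells, was higher in the libraries labelled knockout, at 441.6 ± 9.12 against 383 ± 11.98 FPKM (± SD, n = 4 in either group; log2 difference 0.21, limma adjusted p = 0.00139). The other 8 (Taok3, Id3, Tcf3, Tcf4, Foxo1, Klf2, Ptk2b and Ebf1) were not called.

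Genes whose log2 values followed those of a member most closely were sought over the 10 libraries among 7683 genes averaging 5 FPKM or more. For Notch2 they were AI467606 (Pearson r = 0.999), Trim11 (0.998) and Tk2 (0.998). For Dtx1 they were L3mbtl2 (0.991), Ap2m1 (0.985) and Scamp2 (0.981), and for Hes1, Abcb10 (0.907), Hgsnat (0.894) and Rab12 (0.882). The 10 points share the contrast between 2 unstimulated and 8 stimulated libraries, so these values are descriptions without a test.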
